A study of Mus musculus and Rattus norvegicus with 32 samples.

Results

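The genes described here are antiviral effectors that interferon switches on, drawn from a list of 54 symbols. A gene was kept as a member where its symbol stood in all 4 deposited tables of estimated counts, which 48 of the 54 did, out of 55487 genes in each mouse table and 32883 in the rat table. Oasl was listed only for rat, and Oas1b, Samd9l, Gbp7, Iigp1 and Irgm1 only for mouse. Genes were matched between the species by symbol alone, and a shared symbol in the Mx, Gbp and Oas families need not mean the same ancestral gene.

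RNA sequencing was available for 8 groups of 4 libraries. In the rat arm, neonatal rat ventricular cardiomyocytes (NRVMs) of Sprague Dawley pups at postnatal day 2, pre-plated to remove fibroblasts, carried an adenovirus with the human METTL5 coding sequence (AdMETTL5) or with GFP (AdGFP), and both groups then received the hypertrophic agonist phenylephrine (PE) at 20 μM for 24 h. In the mouse arm, all on a C57BL/6 background, hearts came from whole-body METTL5-KO and control mice at 1 month, from METTL5-cKO and control mice at 3 months, and from METTL5-cKO and control mice labelled 3 months old that had transverse aortic constriction (TAC), a surgical pressure overload that the study followed for 4 weeks. METTL5 is the methyltransferase that places an m6A mark on 18S rRNA. The genotype field of the labels gives Mettl5-KO where the sample titles give Mettl5-cKO, and the titles were followed. The METTL5-cKO allele was floxed over part of its exons and recombined by a Cre driven from the Myh6 promoter, which is active in cardiomyocytes, so the other cells of these hearts kept the gene. Whole-gene counts of Mettl5 did not separate the mouse genotypes (5.61 to 7.13 CPM, counts scaled to a common library size after TMM normalisation, in control and 5.60 to 7.31 CPM in METTL5-cKO hearts after TAC), and rat Mettl5, which need not report the human transgene, was at 16.2 to 18.0 CPM with AdGFP and 19.1 to 23.0 CPM with AdMETTL5 (log2 fold change 0.32, edgeR adjusted p 0.00295). The mouse genotypes were therefore taken from the labels, since the counts hold no values for single exons. Both NRVM groups carried adenovirus, the amount of virus per cell is not given in the sources used here, and the effect of the transgene and that of a difference between virus preparations cannot be told apart. The labels do not say whether libraries came from separate animals or cultures, so the p-values measure the spread between these libraries. Total estimated counts were 19899033 to 21804907 in the mouse libraries, 17344430 to 18085339 with AdGFP and 14324700 to 14642431 with AdMETTL5.

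Type I interferons bind the IFNAR1/IFNAR2 receptor, and the kinases JAK1 and TYK2 then phosphorylate transcription factors such as STAT2. STAT2 and IRF9 act in the complex ISGF3, which binds interferon-stimulated response elements in the promoters of a large set of target genes. Some targets can also be switched on directly by IRF1, IRF3 or IRF7 after viral nucleic acid is sensed in the cytoplasm. The products block infection at many steps: they bind or cut viral RNA, tag proteins with ISG15, trap particles at membranes, deplete nucleotides or break up the vacuoles of parasites. In the heart the programme is best known from viral myocarditis, and resting cardiomyocytes, endothelial cells and macrophages express many of its genes at a basal level.

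The promoters of the members were searched for short motifs. As the list was drawn up from interferon-induced genes, an excess of interferon motifs over all genes is no independent result. RefSeq promoter windows on the mouse genome (GRCm38.p6, 250 bases before to 50 after each start) were at hand for 38 of the 48 members, in 50 windows. The core of the interferon-stimulated response element, searched as GAAANNGAA on both strands, was present in at least 1 window of 20 of the 38 (52.6%), against 9.76% of all 27025 genes in the same table. A gamma-activated site, searched as TTCNNNGAA, which reads alike on both strands, was present in 10 of 38 (26.3%), against 9.55% of all genes. Both motifs occurred in 7 members and neither in 15, and a match here is a description of the letters, not of a bound site. The 6 promoters printed here hold the 150 bases before the start, 5′ to 3′ on the strand of the gene, with matches to the core in capitals. Isg15, Ifit1 and Bst2 were chosen because they rose steeply in NRVMs but did not pass the test after TAC, and Rsad2, Igtp and Cmpk2 because they moved in both comparisons.
Isg15: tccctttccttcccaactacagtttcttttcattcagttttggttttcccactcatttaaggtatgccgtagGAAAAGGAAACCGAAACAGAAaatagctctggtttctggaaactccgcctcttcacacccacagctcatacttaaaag
Ifit1: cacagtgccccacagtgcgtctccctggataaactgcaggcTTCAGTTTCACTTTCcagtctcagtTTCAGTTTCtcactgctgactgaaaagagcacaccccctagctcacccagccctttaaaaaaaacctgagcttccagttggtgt
Bst2: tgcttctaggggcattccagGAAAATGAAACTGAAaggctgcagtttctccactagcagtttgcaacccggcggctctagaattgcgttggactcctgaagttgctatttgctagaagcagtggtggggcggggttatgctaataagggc
Rsad2: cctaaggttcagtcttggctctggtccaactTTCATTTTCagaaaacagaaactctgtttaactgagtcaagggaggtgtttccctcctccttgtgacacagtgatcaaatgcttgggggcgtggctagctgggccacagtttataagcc
Igtp: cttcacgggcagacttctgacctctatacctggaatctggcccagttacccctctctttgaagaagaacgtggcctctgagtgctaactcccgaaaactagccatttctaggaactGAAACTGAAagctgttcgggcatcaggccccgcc
Cmpk2: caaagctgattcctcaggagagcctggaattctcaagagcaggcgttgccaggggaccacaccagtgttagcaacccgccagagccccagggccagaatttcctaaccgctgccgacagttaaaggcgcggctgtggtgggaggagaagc
These stretches lie at chr4:156200819-156200968 (minus strand), chr19:34640739-34640888 (plus strand), chr8:71537473-71537622 (minus strand), chr12:26456453-26456602 (minus strand), chr11:58199406-58199555 (plus strand) and chr12:26469065-26469214 (plus strand). In Isg15, Ifit1 and Bst2 the core recurs and matches partly overlap, with 3, 3 and 2 matches. Rsad2 holds 1 match, in the distal part of its stretch, and Igtp holds 1 close to its start. Bst2 and Igtp each also hold 1 match to the gamma-activated site. As these 6 were picked by their calls, and match numbers were not compared over the other members, they show no relation between the 2. Cmpk2 has no match to either motif in this stretch, and it lies beside Rsad2 on chromosome 12 with 12751 bases between the gene models and is transcribed in the opposite direction. Of the 18 members with a window that fell after TAC, 10 (55.6%) hold the core and 4 (22.2%) the gamma-activated site, against 52.6% and 26.3% of the 38 members.

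In NRVMs, AdMETTL5 came with higher levels of nearly the whole list. Of 45 members tested, 43 rose, 1 fell (Ifitm1) and 1 (Trim14) did not pass the test (edgeR quasi-likelihood test, Benjamini-Hochberg adjusted p under 0.05 over all genes). Of all 15041 genes tested, 27.1% were called higher and 25.7% lower, so a call alone is common in this comparison. A rise of more than 1 on the log2 scale was not, being met by 36 members and by 4.05% of all genes. The 4 AdMETTL5 libraries lay above all 4 AdGFP libraries for 43 members, a separation that 25.2% of all genes showed. The median log2 fold change of the members was 2.13, a 4.38-fold rise, and stayed at 2.13 with Oas2 set to its lower bound. Summed over the members, the level went from 990.6 to 1190.4 CPM in AdGFP to 2919 to 4157 CPM in AdMETTL5. Oas3 and Gbp3 had an estimated count of 0 in every NRVM library and Epsti1 in all but 1, and these 3 were not tested.

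**Figure D1:**
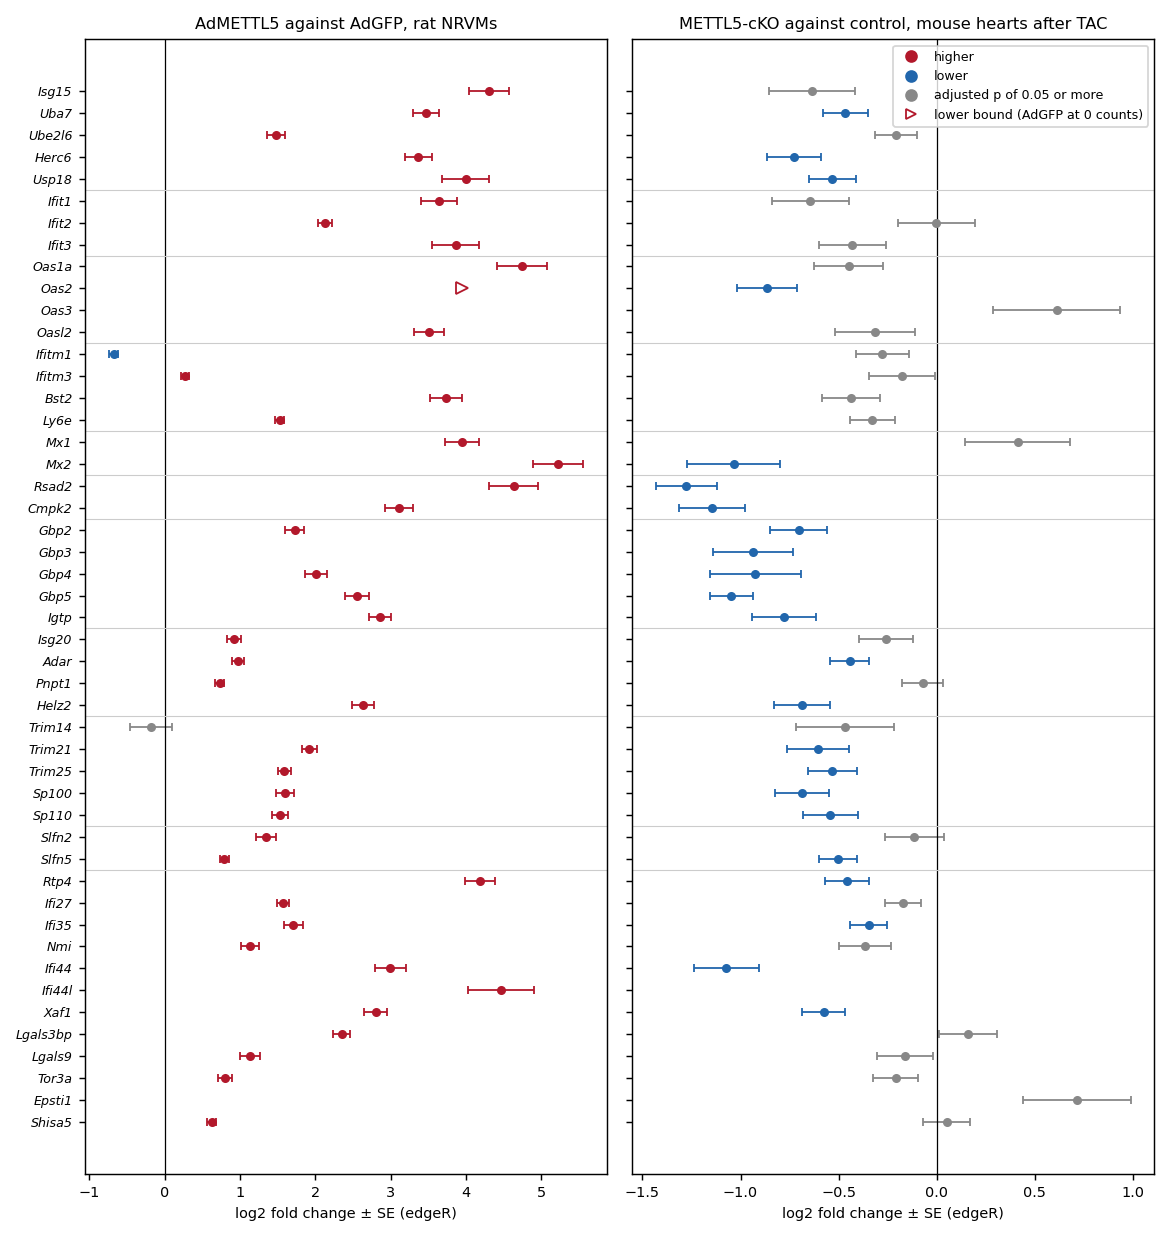
Log2 fold changes with their SE (edgeR) for each member, grouped by role between the grey lines, with AdMETTL5 against AdGFP in rat NRVMs on the left and METTL5-cKO against control mouse hearts after TAC on the right, on axes of different range. On the left 43 members lie to the right of 0 in red, with Oas2 drawn as a lower bound, and on the right 23 members lie to the left of 0 in blue, while members in grey did not pass the test and members without a point were not tested.

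The ISG15 conjugation genes rose together, 5 of 5. Isg15, which encodes a ubiquitin-like modifier, went from 5.39, 3.97, 2.68 and 2.79 CPM in AdGFP libraries 1 to 4 to 78.6, 78.7, 94.3 and 41.9 CPM in AdMETTL5 libraries 1 to 4. The groups were far apart, and the log2 fold change was 4.31 ± 0.27 (SE, n = 4 a group, as for every value here). Uba7, its activating enzyme, was at 5.04, 3.19, 2.74 and 5.46 CPM against 43.0, 47.1, 54.0 and 37.9 CPM, a log2 fold change of 3.47 ± 0.17. Herc6, a ligase of the pathway in mouse, went from 4.44, 3.61, 1.92 and 2.85 to 31.4, 31.7, 41.1 and 28.2 CPM, a rise of 3.37 ± 0.18. All 4 AdMETTL5 libraries of each of these genes lay several times above the AdGFP libraries. The E2 enzyme Ube2l6 rose by 1.48 ± 0.12 from 17.6 to 23.6 CPM in AdGFP to 44.2 to 68.4 CPM in AdMETTL5. Usp18, which removes ISG15 and restrains signalling at IFNAR2, was at 9.19, 4.81, 1.69 and 3.83 CPM in AdGFP and at 74.8, 85.0, 99.0 and 52.3 CPM in AdMETTL5. That is a 15.9-fold rise, although AdGFP libraries 1 and 3 themselves differed several times over.

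Among the genes that act on RNA, the IFIT proteins, which bind RNA with foreign 5′ ends, rose in 3 of 3 cases. Ifit2 was at 17.2, 14.4, 13.2 and 13.3 CPM in AdGFP and 57.3, 62.4, 72.9 and 62.1 CPM in AdMETTL5, a rise of 2.13 ± 0.09. Its rise was smaller and its error tighter than those of Ifit1 (3.64 ± 0.24) and Ifit3 (3.86 ± 0.31). Many but not all OAS proteins make 2-5A, the activator of RNase L, and the 3 members of the family tested rose. Oas1a rose by 4.75 ± 0.34, from 0 to 1.60 CPM to 18.1 to 30.0 CPM, and Oasl2 by 3.51 ± 0.20, from 9.13, 7.70, 3.499 and 5.58 to 74.8, 69.1, 89.1 and 61.9 CPM. Oas2 had no counts in any AdGFP library and 34 to 61 counts in the AdMETTL5 libraries, which is at least 15.45-fold higher when each AdGFP library is set to a floor of 3 counts. The rat-only Oasl rose by 3.97 ± 0.31. The RNA editor Adar went from 51.8, 50.1, 50.4 and 57.0 to 92.7, 95.2, 119 and 104 CPM, and with a rise of 0.97 ± 0.08 it stayed under 1 log2 unit, as did the exonuclease Isg20 (0.92 ± 0.10) and the mitochondrial RNA enzyme Pnpt1 (0.73 ± 0.06). The helicase Helz2 rose by 2.63 ± 0.14, from 6.70, 5.35, 4.14 and 6.04 to 28.9, 35.7, 41.8 and 31.6 CPM.

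The membrane restriction genes were the least uniform. Ly6e had the smallest adjusted p of all members (1.23e-08 by edgeR), with 38.0, 34.2, 33.3 and 33.7 CPM in AdGFP and 95.3, 99.6, 111 and 95.5 CPM in AdMETTL5. Its libraries lay close together within each group, and the rise was 1.53 ± 0.06. Bst2 (tetherin), which holds budding virions at the cell surface, rose by 3.73 ± 0.21. Ifitm3, which blocks entry from endosomes, rose by 0.27 ± 0.06, from 207, 193, 202 and 182 CPM to 245, 235, 248 and 216 CPM. Its relative Ifitm1 went the other way, from 94.2, 91.0, 94.7 and 83.7 CPM to 62.0, 58.2, 55.8 and 51.3 CPM, and fell by 0.68 ± 0.06 on the log2 scale. The 2 IFITM genes thus changed in opposite directions, each with groups that did not overlap.

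The dynamin-like and nucleotide-directed effectors rose in 4 of 4 cases. Mx2 was at 14.5, 6.49, 1.81 and 6.33 CPM in AdGFP and 259, 273, 351 and 204 CPM in AdMETTL5, a rise of 5.23 ± 0.33 (37.4-fold). Mx1 rose by 3.95 ± 0.22. Rsad2 (viperin), which makes a chain-terminating CTP analogue, was at 6.58, 3.79, 1.17 and 2.44 CPM against 84.2, 95.8, 113 and 53.8 CPM, a rise of 4.64 ± 0.33. Its neighbour Cmpk2, a nucleotide kinase that supplies CTP, rose by 3.11 ± 0.19, from 5.63, 3.73, 3.09 and 3.89 to 34.6, 36.0, 44.4 and 26.0 CPM. The guanylate-binding proteins and the immunity-related GTPase Igtp, which attack pathogen vacuoles and are classically induced by interferon gamma, rose in 4 of 4 tested cases. Igtp rose from 9.90, 7.22, 5.42 and 7.20 CPM to 50.2, 52.9, 64.7 and 47.5 CPM (2.86 ± 0.14), with a gap between the groups wider than either group's spread. Gbp5 rose by 2.56 ± 0.16, from 7.53, 6.61, 5.48 and 6.27 to 38.5, 41.2, 46.0 and 26.9 CPM. Gbp4 rose by 2.01 ± 0.14, from 4.03, 4.33, 4.49 and 4.42 to 16.7, 14.8, 23.0 and 15.3 CPM. Gbp2, with the lowest rise of the 4, went from 16.9, 14.4, 15.0 and 15.7 to 50.3, 53.3, 62.8 and 39.1 CPM (1.73 ± 0.12).

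Of the TRIM and nuclear body genes, 4 of 5 rose. Trim21, a cytosolic antibody receptor, rose by 1.92 ± 0.10, from 14.5, 15.1, 12.4 and 13.8 to 51.8, 55.5, 59.8 and 43.5 CPM. Trim25, the ligase that acts on RIG-I, rose by 1.59 ± 0.08, from 15.3, 16.1, 16.4 and 18.5 to 49.9, 49.4, 56.4 and 43.9 CPM. The nuclear body proteins Sp100 and Sp110 rose alike, by 1.59 ± 0.12 and 1.53 ± 0.10. Sp100 was at 7.41, 6.79, 5.48 and 6.80 CPM against 19.6, 19.1, 24.1 and 17.1 CPM, and Sp110 at 27.7, 24.2, 23.7 and 23.1 CPM against 69.4, 74.9, 82.7 and 58.2 CPM. Trim14 was low in both groups (0.639 to 1.13 against 0.607 to 0.805 CPM) and its difference was −0.19 ± 0.28. The Schlafen genes Slfn2 (1.35 ± 0.14) and Slfn5 (0.79 ± 0.06) rose, Slfn5 from 33.5, 35.2, 35.0 and 36.3 to 59.1, 54.6, 65.3 and 62.8 CPM, in groups that were tight and apart. All 11 tested genes of the remaining group rose, between 0.63 ± 0.06 for Shisa5 and 4.47 ± 0.44 for Ifi44l, a value that rests on 2 AdGFP libraries at 0. Rtp4 rose 18.2-fold, from 1.84, 1.80, 0.991 and 1.34 CPM to 27.1, 27.4, 34.4 and 20.1 CPM. Lgals3bp, a secreted glycoprotein, rose from 170, 160, 130 and 158 CPM to 831, 808, 884 and 629 CPM (2.35 ± 0.11). Ifi27, a mitochondrial protein, was at 84.4, 80.5, 71.4 and 81.6 CPM against 250, 227, 261 and 207 CPM (1.57 ± 0.08), and Xaf1, which antagonises the caspase inhibitor XIAP, at 1.19, 1.14, 0.933 and 1.22 CPM against 7.01, 8.25, 9.18 and 6.99 CPM (2.80 ± 0.15). Ifi44 rose by 3.00 ± 0.21, from 10.9, 8.36, 4.61 and 5.87 to 59.8, 61.6, 72.2 and 43.8 CPM, and Ifi35, a partner of Nmi, by 1.71 ± 0.12, from 7.82, 5.29, 5.60 and 6.45 to 18.9, 22.0, 23.3 and 18.2 CPM.

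The libraries of a group ranked alike across members. AdMETTL5 library 3 was the highest of its group for 41 of 45 members and library 4 the lowest for 37, while AdGFP library 1 was the highest for 34 and library 3 the lowest for 30. The members therefore carry shared variation within each group and are not independent measurements. Such ranks, here and in the hearts, were not computed over all genes, so this variation need not be particular to the members. The count of 43 members called higher was the same in each of 8 fits that left out 1 library.

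Markers of cell types moved in the same libraries. In NRVMs all 7 cardiomyocyte markers fell, from a summed 27189 to 34870 CPM in AdGFP to 11849 to 13310 CPM in AdMETTL5. Of 5 fibroblast markers 4 fell, and the 5 summed to 8566 to 9065 CPM in AdGFP and 6967 to 7690 CPM in AdMETTL5. Most of that sum was Col1a1 (mean 8411 CPM in AdGFP), so fibroblast markers were still read after pre-plating. The 5 endothelial markers summed to 40.2 to 42.9 CPM in AdGFP and 53.3 to 58.2 CPM in AdMETTL5, without overlap. Of the 4 tested, Kdr rose (0.86 ± 0.09) and 3 did not pass the test. Of 5 smooth muscle and pericyte markers Acta2 rose (0.25 ± 0.08) and 4 did not pass the test. The 7 macrophage markers summed to 61.3 to 72.0 CPM against 48.5 to 59.4 CPM, where 2 of them fell and Cd68 gave 0.24 ± 0.11. The 6 T and NK cell markers summed to 4.30 to 5.66 CPM against 3.17 to 3.495 CPM, with Cd3e at 0 in every library. Only 1 of them was tested, Cd4, which was called lower (−0.74 ± 0.15), so the list does not show a change of T and NK cells. Neutrophil markers summed to at most 0.583 CPM. The part of these shifts in the levels of the members was not tested.

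**Figure D2:**
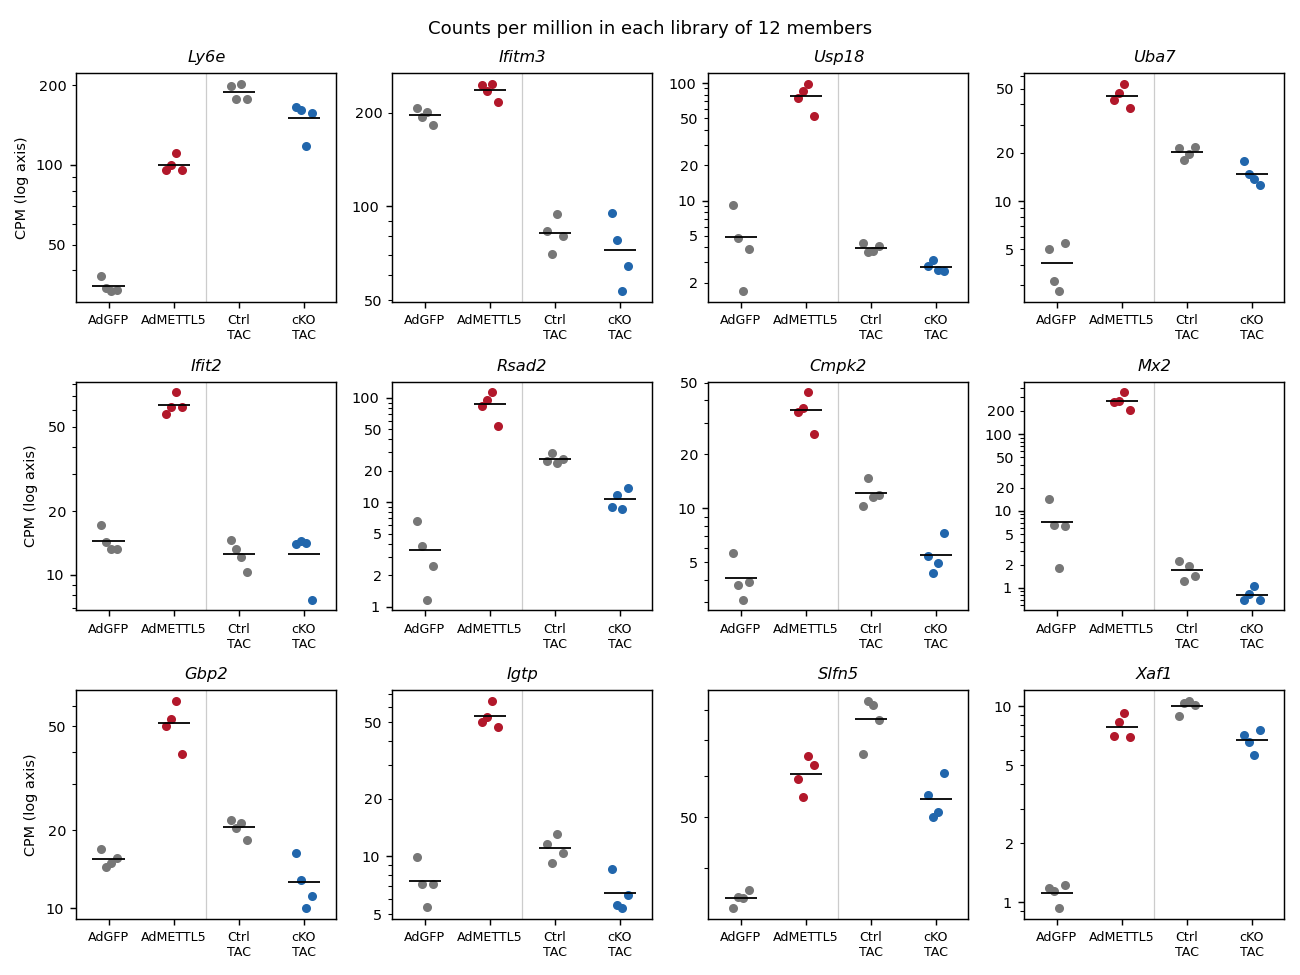
Level in CPM on a log axis in each library (points, libraries 1 to 4 from left to right) with the group mean (line) for 12 members, in rat NRVMs with AdGFP or AdMETTL5 to the left of the grey line and in mouse control or METTL5-cKO hearts after TAC to the right. In every panel the AdMETTL5 points lie above the AdGFP points, and in all panels but Ifit2 and Ifitm3 the METTL5-cKO points lie below the control points. Levels cannot be compared across the grey line, since species, tissue and tables differ.

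In hearts after TAC the same list tended to lower levels without METTL5 in cardiomyocytes, by much less and for fewer genes. Of 47 members tested, 23 fell, 0 rose and 24 did not pass the test. Over all 16340 genes, 6.1% were called lower and 6.57% higher. At an unadjusted p under 0.05, 31 members differed, 30 of them lower and 1 (Epsti1) higher, where 31% of all genes did. DESeq2 also called 23 members lower and 0 higher, and of 16124 genes it called 1259 lower and 1460 higher. A fall of more than 1 on the log2 scale was met by 5 members and by 0.894% of all genes. The METTL5-cKO libraries lay below all control libraries for 25 members, against 9.16% of all genes. The median log2 fold change of the members was −0.46, and their summed level was 903 to 1003 CPM in control and 619.6 to 798 CPM in METTL5-cKO hearts. Ifi44l had an estimated count of 0 in all 8 libraries and was not tested. In bulk tissue, fewer cells of a type and less RNA per cell cannot be told apart.

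The number of calls depended on single libraries. Without control library 4 or without METTL5-cKO library 2, 7 members were called lower. Without control library 2, 3 or METTL5-cKO library 3 there were 10, 12 and 13, and without METTL5-cKO library 4 there were 24. Calls over all genes moved in the same fits. From 997 of 16340 genes called lower, they went to 188 of 16638 without control library 4. Without METTL5-cKO library 2 they were 204 of 16551, and without METTL5-cKO library 4 they were 1926 of 16659. Without control library 2, 3 or METTL5-cKO library 3 they were 289, 444 and 440. Plain library totals in place of TMM moved the median of all genes by 0.146 on the log2 scale. With them 15 members and 525 of 16340 genes were called lower. Without the filter on low counts 14 members and 411 of 30075 genes were. The median of the members stayed between −0.49 and −0.40 when any 1 library was left out. The calls of 6 members held in all 8 of those fits, namely Rsad2, Cmpk2, Gbp5, Ifi44, Oas2 and Herc6.

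Cell markers also moved after TAC. Of 6 endothelial markers 4 fell in METTL5-cKO hearts (592.8 to 693.3 against 405 to 519.7 CPM) and 5 of 6 fibroblast markers rose (466.6 to 573.7 against 681 to 1629 CPM). Cardiomyocyte markers summed to 29651 to 34206 against 22482 to 29866 CPM, but of 6 tested only 1 was called lower and 5 did not pass the test. Of 7 macrophage markers 2 rose (137 to 188 against 181 to 254 CPM). Of 5 smooth muscle and pericyte markers 1 fell (491 to 535 against 374 to 495 CPM). B cell markers summed to 2.374 to 3.62 against 0.525 to 2.365 CPM, and T and NK cell markers to 0.678 to 1.82 against 1.41 to 4.64 CPM. No B cell, T and NK cell or neutrophil marker tested was called. Their part in the levels of the members was likewise not tested.

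Rsad2 fell the most. It was at 24.7, 29.9, 23.8 and 25.7 CPM in control libraries 1 to 4 and at 8.93, 11.8, 8.56 and 13.8 CPM in METTL5-cKO libraries 1 to 4, 2.42-fold lower, with a log2 fold change of −1.28 ± 0.15 and an adjusted p of 0.00482 by edgeR. Its neighbour Cmpk2 was at 10.3, 14.7, 11.6 and 11.9 CPM against 5.39, 4.37, 4.92 and 7.28 CPM (−1.15 ± 0.17). The divergent pair on chromosome 12, 26442746 to 26456452 for Rsad2 and 26469204 to 26479837 for Cmpk2, thus held the 2 members with the lowest log2 fold changes, without overlap between groups in either gene. Mx2 was at 2.23, 1.21, 1.92 and 1.40 CPM against 0.701, 0.819, 1.05 and 0.698 CPM (−1.04 ± 0.24), while Mx1, at 0.581 to 0.675 against 0.449 to 1.14 CPM, gave 0.41 ± 0.27 and did not pass the test. Both Mx genes are known to be defective in common laboratory strains such as C57BL/6, and Mx2 is annotated as a polymorphic pseudogene, so these are transcript levels only.

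The GTPases of the GBP and IRG families fell in 5 of 5 tested cases, as did the pair of Rsad2 and Cmpk2 and no other role with all its members. Gbp5 had the smallest adjusted p of all members (0.00245 by edgeR), at 10.6, 9.91, 11.3 and 10.3 CPM in control and 5.78, 5.05, 5.33 and 4.14 CPM in METTL5-cKO hearts (−1.05 ± 0.11). Gbp2 went from 21.9, 20.4, 21.4 and 18.4 CPM to 16.3, 12.8, 10.0 and 11.2 CPM (−0.70 ± 0.14), Gbp3 fell by 0.94 ± 0.21 on the log2 scale and Igtp by 0.78 ± 0.16, from 11.6, 9.28, 13.1 and 10.5 to 8.58, 5.60, 5.37 and 6.33 CPM. In these 4 genes every METTL5-cKO library lay below every control library. Gbp4 was called lower (−0.92 ± 0.23), from 23.0, 13.0, 21.4 and 19.3 to 14.7, 9.74, 7.91 and 7.98 CPM, but METTL5-cKO library 1 at 14.7 CPM lay above control library 2 at 13.0 CPM. The mouse-only Gbp7 and Irgm1 also fell (−0.81 ± 0.15 and −0.43 ± 0.11), and Iigp1 gave −0.88 ± 0.26 with an adjusted p of 0.0515 by edgeR, just outside the threshold. Exons of Gbp4 overlap Gbp8 and Gbp9 and those of Igtp overlap Irgm2 on the same strand, so their counts are uncertain.

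Of the ISG15 genes 3 of 5 fell. Herc6 was at 5.99, 8.94, 8.83 and 7.32 CPM in control and 5.08, 4.69, 4.64 and 4.34 CPM in METTL5-cKO hearts (−0.73 ± 0.14). Usp18 fell by 0.53 ± 0.12 on the log2 scale, from 4.36, 3.64, 3.74 and 4.07 to 2.76, 3.09, 2.58 and 2.49 CPM, and Uba7 by 0.47 ± 0.11, from 21.4, 18.1, 19.7 and 21.8 to 17.7, 14.7, 13.8 and 12.5 CPM, each without overlap. Isg15 itself, at 3.17, 4.22, 3.90 and 2.33 CPM against 2.72, 2.23, 2.18 and 1.60 CPM, overlapped between groups and gave −0.64 ± 0.22 with an adjusted p of 0.0818. Of the OAS genes 1 of 4 fell, Oas2, from 20.7, 33.9, 31.9 and 25.6 CPM to 13.7, 16.5, 14.6 and 17.0 CPM (−0.86 ± 0.15). The mouse-only Oas1b, also a polymorphic pseudogene in the annotation, fell by 0.98 ± 0.19, whereas Oas1a (−0.45 ± 0.18), Oasl2 (−0.32 ± 0.20) and the very low Oas3 (0.61 ± 0.32) did not pass the test.

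None of the 3 IFIT genes and none of the 4 membrane restriction genes passed the test by edgeR. Ifit2 was at 14.7, 13.2, 12.2 and 10.3 CPM in control hearts and 14.0, 14.5, 14.1 and 7.63 CPM in METTL5-cKO hearts, where library 4 stood apart and the fold change was −0.00 ± 0.20. Ifit1 gave −0.64 ± 0.20 (adjusted p 0.0596 by edgeR and 0.0425 by DESeq2) with groups that did not overlap, and Ifit3 gave −0.43 ± 0.17. Ly6e, at 198, 177, 203 and 178 CPM against 166, 161, 118 and 157 CPM, lay lower in all 4 METTL5-cKO libraries with a log2 fold change of −0.33 ± 0.11 and an adjusted p of 0.0848. Bst2 gave −0.44 ± 0.15, Ifitm1 −0.28 ± 0.13 and Ifitm3 −0.18 ± 0.17. Ifitm3 and Ly6e were the members with the highest level per length of exon in control hearts after TAC, with 121 ± 14.5 CPM per kb for Ifitm3 (SD, n = 4), and Bst2 followed at 21.4 ± 2.32 CPM per kb.

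Among the rest, 4 of 5 TRIM and nuclear body genes fell, and Trim14 gave −0.47 ± 0.25. Sp100 fell by 0.69 ± 0.14 on the log2 scale, from 24.5, 34.5, 39.5 and 31.1 to 21.9, 20.7, 20.1 and 17.8 CPM, and Sp110 by 0.54 ± 0.14, from 3.86, 3.79, 4.62 and 3.44 to 3.20, 2.64, 2.54 and 2.39 CPM. Trim21 fell by 0.61 ± 0.16, from 5.30, 5.002, 4.78 and 4.55 to 3.94, 3.23, 3.39 and 2.29 CPM, and Trim25 by 0.53 ± 0.13, from 23.7, 31.0, 28.1 and 35.0 to 18.8, 19.1, 20.1 and 23.6 CPM. None of these 4 genes overlapped between groups. Slfn5 went from 66.0, 83.4, 81.8 and 76.7 CPM to 55.0, 49.97, 51.1 and 60.8 CPM (−0.51 ± 0.10), the mouse-only Samd9l fell by 0.57 ± 0.10, and Slfn2 gave −0.11 ± 0.15. Of the RNA-acting genes Helz2 fell by 0.69 ± 0.14, from 26.8, 37.3, 35.4 and 37.8 to 21.0, 17.3, 21.2 and 25.7 CPM, and Adar by 0.44 ± 0.10, from 18.2, 17.6, 20.3 and 17.3 to 11.8, 14.0, 15.5 and 12.7 CPM, while Isg20 and Pnpt1 gave −0.26 ± 0.14 and −0.07 ± 0.10. In the remaining group Ifi44 fell by 1.07 ± 0.17, from 5.10, 7.58, 6.70 and 5.62 CPM to 3.72, 2.64, 2.62 and 2.89 CPM, a drop clear of the spread in both groups. Xaf1 fell by 0.58 ± 0.11, from 8.86, 10.3, 10.7 and 10.1 to 7.10, 6.60, 5.61 and 7.53 CPM, Rtp4 by 0.46 ± 0.11, from 8.96, 7.92, 10.0 and 8.43 to 7.23, 6.92, 5.81 and 5.78 CPM, and Ifi35 by 0.35 ± 0.09, from 15.9, 18.7, 20.3 and 19.2 to 14.0, 15.4, 13.4 and 15.5 CPM. The other 7 tested genes of this group lay between −0.36 ± 0.13 for Nmi and 0.71 ± 0.27 for Epsti1, with Shisa5 (0.05 ± 0.12) at 35.1, 34.3, 41.5 and 35.4 CPM against 46.0, 37.8, 30.8 and 36.8 CPM. Epsti1 was called higher (1.01) only in the fit without control library 3.

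**Figure D3:**
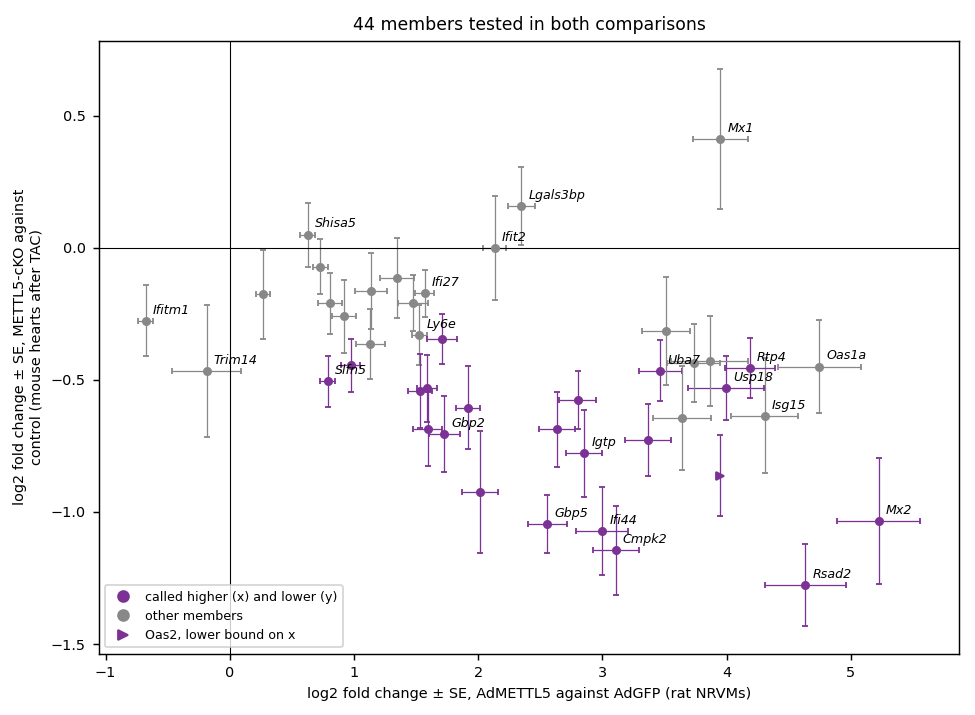
Each point is a member tested in both comparisons (n = 44), with the log2 fold change ± SE of AdMETTL5 against AdGFP in rat NRVMs on the x axis and of METTL5-cKO against control mouse hearts after TAC on the y axis. The 22 members in purple were called higher on x and lower on y and fill the lower right, Oas2 is drawn at its lower bound, and 3 members lie above 0 on both axes.

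Set side by side gene by gene, 44 members were tested in both comparisons, which share no sample. The members were chosen with earlier results of these data known, so the shares below are a description and not a test. Of these, 22 were called higher with AdMETTL5 and lower in METTL5-cKO hearts after TAC, against 1.65% of the 11029 symbols tested in both. Without regard to calls, 39 of the 44 (88.6%) were positive in NRVMs and negative after TAC, against 24.7% of all symbols. Mx1, Lgals3bp and Shisa5 were positive in both and Ifitm1 and Trim14 negative in both. The 22 are Rsad2, Cmpk2, Mx2, Gbp2, Gbp4, Gbp5, Igtp, Uba7, Herc6, Usp18, Oas2, Adar, Helz2, Trim21, Trim25, Sp100, Sp110, Slfn5, Rtp4, Ifi35, Ifi44 and Xaf1. With library size scaling in both fits 14 met both calls, and with 1 heart library left out between 7 and 23 did. The share over all symbols was computed for the main fits only. Requiring more than 1 log2 unit in each left 5 (Rsad2, Cmpk2, Mx2, Gbp5 and Ifi44). Of the 22, 12 have an exon that overlaps another annotated mouse gene, and 10 remain without these.

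The sizes of the 2 changes were only loosely related. Across the 44 members, which are not independent, the correlation of the log2 fold changes was r = −0.41 and rho = −0.48, against −0.06 and −0.01 over all symbols. Both take Oas2 in NRVMs at its fitted 8.46, a value set by the absence of AdGFP counts, and not at its lower bound. Rsad2 and Mx2 were extreme in both (4.64 and 5.23 in NRVMs, −1.28 and −1.04 after TAC). With 1 heart library left out, the call of Rsad2 after TAC held in 8 of 8 fits and that of Mx2 in 3 of 8. Oas1a, Isg15 and Ifit3 rose by 3.86 to 4.75 in NRVMs and gave −0.43 to −0.64 after TAC without passing the test. At the other end, Slfn5 and Adar, which rose by less than 1 in NRVMs, both fell after TAC. Gbp5 and Lgals3bp rose alike in NRVMs (2.56 and 2.35) and stood at −1.05 and 0.16 after TAC.

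Without TAC no member passed the test by edgeR. At 3 months 0 of 46 members tested were called by edgeR, and 0.0732% of all genes were called (12 of 16391). An unadjusted p under 0.05 was found for 4 members, close to the 7.05% of all genes that met it. The median log2 fold change was −0.18, and it moved between −0.33 and −0.06 with 1 library left out. Of 46 members 38 were negative, where 50.3% of all genes were positive. The members are not independent, so these signs are not separate observations. Without METTL5-cKO library 4 the unadjusted p was under 0.05 for 15 members and without library 1 or 3 for 1, and in none of these fits was a member called. The share of all genes at that p was not computed for these fits, so the 15 cannot be set against it. Slfn5 had the smallest p, at 79.8, 81.6, 93.2 and 86.4 CPM in control and 65.5, 61.7, 57.2 and 70.5 CPM in METTL5-cKO hearts, with no overlap, a log2 fold change of −0.42 ± 0.09 and an adjusted p of 0.282 by edgeR. DESeq2 called it, as the only member, with an adjusted p of 0.0034. Of 18025 genes DESeq2 called 59 higher and 49 lower at 3 months. The METTL5-cKO hearts at 3 months split, libraries 1 and 3 being the 2 lowest of their group for 36 of 46 members and library 4 the highest for 32. For Rsad2 the 4 values were 6.41, 18.3, 10.2 and 22.9 CPM against 10.2, 18.9, 22.9 and 12.6 CPM in control hearts, and for Ifi44 they were 1.81, 4.21, 1.93 and 4.80 CPM against 3.59, 5.45, 5.51 and 4.46 CPM. Both genes overlapped between groups.

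At 1 month, in METTL5-KO mice, 0 of 47 members tested were called by edgeR or DESeq2. Of all genes, edgeR called 0.00612% (1 of 16329), and DESeq2 called 5 higher and 8 lower of 21667. An unadjusted p under 0.05 was found for 1 member and for 4.57% of all genes. The median log2 fold change was −0.01. That 1 member was Rsad2, at 37.3, 34.5, 41.1 and 31.4 CPM in control and 20.1, 21.8, 20.7 and 36.5 CPM in METTL5-KO hearts, a log2 fold change of −0.54 ± 0.20 with an adjusted p of 0.973 by edgeR. METTL5-KO library 4 overlapped the control hearts and was the highest of its group for 32 of the 47 members, as control library 3 was for 35. Here too the members moved together from heart to heart within a genotype.

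**Figure D4:**
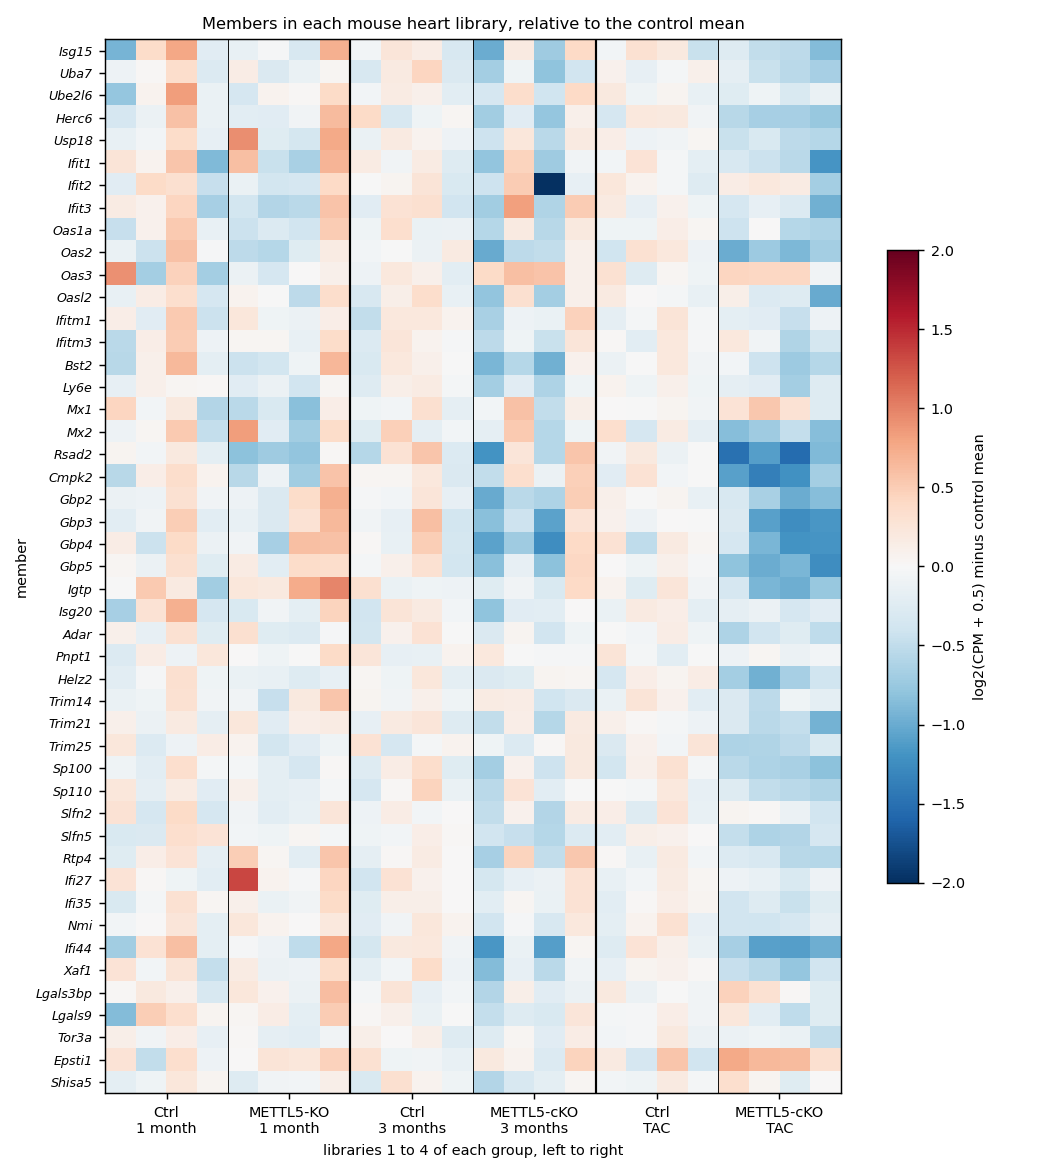
Level of each member (rows, ordered by role) in each of the 24 mouse heart libraries (columns), as log2(CPM + 0.5) minus the mean of the control libraries at the same age or after TAC, red above and blue below that mean. The blue of the METTL5-cKO libraries after TAC is strongest, by the mean over the 4 libraries, for Rsad2, Cmpk2, Gbp5 and Ifi44, while the METTL5-cKO libraries at 3 months split into 2 low and 2 higher ones and the METTL5-KO libraries at 1 month show no common colour.

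Whether the effect of METTL5-cKO after TAC differed from that at 3 months was tested by an interaction term over these 4 groups. No member was called by edgeR (0 of 47), and 0% of 17070 genes were called lower. An unadjusted p under 0.05 was found for 7 members, each with the more negative effect after TAC, and for 11.8% of all genes. Cmpk2 was the nearest, with a difference of log2 fold changes of −1.23 ± 0.29 (adjusted p 0.128 by edgeR, 0.0144 by DESeq2, and 0.0133 by edgeR without METTL5-cKO library 4 after TAC), followed by Helz2 (−0.56 ± 0.19) and Igtp (−0.72 ± 0.26). Over all genes, DESeq2 called 163 higher and 68 lower of 18540. Without METTL5-cKO library 4 after TAC, edgeR called 371 higher and 307 lower of 17353. A larger effect after TAC was therefore not shown for the members as tested by edgeR, and the hearts after TAC and those at 3 months came in separate tables.

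Upstream genes of the pathway were read from a separate list. No interferon gene was tested in either comparison, and Ifnb1 had at most 1 count in a library of NRVMs and none after TAC. In NRVMs 7 of 9 sensors rose, among them Ddx58 (RIG-I, 3.02 ± 0.18), Dhx58 (3.69 ± 0.21), Ifih1 (MDA5, 2.59 ± 0.16) and the kinase Eif2ak2 (1.81 ± 0.08), while the adaptor Mavs fell by 0.30 ± 0.06 on the log2 scale. Of 7 receptor and kinase genes, Jak2 rose (0.21 ± 0.06), Ifngr2 fell (−0.16 ± 0.04) and 5 did not pass the test. Among the factors, Irf7 rose from 15.6, 10.2, 5.95 and 10.7 CPM to 198, 193, 249 and 156 CPM (4.22 ± 0.21), Stat2 and Irf9 rose by 1.78 ± 0.08 and 1.76 ± 0.13, and Irf3 fell by 0.20 ± 0.06. After TAC the factors Irf1 (−0.63 ± 0.09), Stat2 (−0.59 ± 0.14) and Irf9 (−0.40 ± 0.09) fell. Irf7 gave −0.39 ± 0.13 with an adjusted p of 0.0736 by edgeR. Of 9 sensors Ddx58 fell (−0.43 ± 0.10), and of 7 receptor and kinase genes Ifngr1 rose (0.38 ± 0.08). The inhibitor Socs1 rose in NRVMs (1.61 ± 0.13) and gave −0.22 ± 0.37 after TAC.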

How the data were processed

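RNA sequencing data of 8 groups with 4 libraries each were taken as the authors deposited them, in 4 tables of estimated counts per gene, whole numbers made with HISAT2 2.0.4 and StringTie 2.1.4 on GRCm38 or Rnor_6.0 per the submitters' processing notes, which also name DESeq2 1.4.5. The strand setting is not given in the sources used here. The 1-month columns carried the numbers of single samples. The columns of the other tables matched a group only, and their libraries are numbered 1 to 4 in ascending order of column number. The number of columns left without a sample or group was 0. The effect of counting reads without strand on genes with overlapping partners could not be read from the tables, and 13 members have an exon that overlaps another annotated mouse gene.

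Each comparison was fitted on its own with the quasi-likelihood test of edgeR 4.0.16 (limma 3.58.1, R 4.3.3) after filterByExpr (minimum count 10, minimum total count 15) and TMM normalisation. P-values were adjusted by the Benjamini-Hochberg method over all genes tested, and a gene was called at an adjusted p under 0.05. CPM were computed with the TMM-scaled library sizes. The pipeline was tested on simulated counts with known changes. DESeq2 1.42.0, other scalings, no filter, a fold threshold and fits without each library served as alternatives. The counts of replicates were compared, and the closest pair still differed by more than sampling noise (chi-square divided by its degrees of freedom, 2.16). Replicate numbers were shared by the 1-month groups only, where same-numbered hearts correlated at 0.239, 0.12, −0.107 and 0.0782, so they were not treated as pairs.

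The members, their roles and the lists of pathway genes and cell markers were chosen with earlier results of these data known. Values in every library are given for the 10 members with the smallest adjusted p in each direction, the member of each role with the highest mean CPM, and every member called in both comparisons. Promoter sequences are from RefSeq on GRCm38.p6, and rat sequences were not used here. Figures were drawn with matplotlib 3.10.9. Some genes of the pathway and marker lists are not reported here.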

Additional observations from a re-analysis of the deposited data

Results flagged for a closer look

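In 3 of 107 groups of 4 libraries examined, 1 library stood far from the other 3 by Dixon's test, where chance gives about 1 in 20. Oas2 was at 4 CPM in AdMETTL5 library 3, against 2.22 to 2.43 CPM in the other 3 libraries. This was also the library in which 41 of 45 members were at their highest within the group. Ifit2 was at 7.63 CPM in METTL5-cKO library 4 after TAC, against 14 to 14.5 CPM in the other METTL5-cKO hearts, and without that library its log2 fold change was 0.18. Shisa5 was at 41.5 CPM in control library 3 after TAC, against 34.3 to 35.4 CPM in the other control hearts. Neither Ifit2 nor Shisa5 was called after TAC in any of the alternatives run.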

How the results depend on the processing

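In NRVMs 43 members were called higher under each scaling, without the filter, with DESeq2 and with any 1 library left out (library totals moved the median of all genes by 0.135 on the log2 scale), and 36 when a log2 fold change over 1 was required. After TAC, 23 members were called lower, 23 with DESeq2, 15 with library totals in place of TMM (median log2 fold change −0.31), 14 without the filter on low counts, 5 with a log2 fold change over 1, and 7 to 24 with 1 library left out. Over all genes, lower calls were 997 in the main fit, 1259 with DESeq2, 525 with library totals and 411 without the filter. With 1 library left out they ranged from 188 to 1926. The members that met both calls, 22 in all, became 14 with library totals, 5 over 1 log2 unit, 10 without genes whose exons overlap another gene, and 7 to 23 with 1 heart library left out. For these alternatives the share over all symbols was not computed. DESeq2 called 1 member at 3 months (Slfn5) and 1 in the difference between TAC and 3 months (Cmpk2), which edgeR called in 0 to 1 members with 1 library left out. Over all genes DESeq2 called 59 higher and 49 lower at 3 months, and 163 higher and 68 lower in that difference. A few uncalled differences after TAC changed sign: Ifit2 to 0.0047 with the size factors of DESeq2, 0.16 with library totals, 0.016 with DESeq2 and 0.016 without the filter, and −0.081 to 0.18 with 1 library left out. Pnpt1 went to 0.075 and Slfn2 to 0.036 with library totals, and with 1 library left out Pnpt1 ranged from −0.13 to 0.029 and Shisa5 from −0.057 to 0.14. The cause of these changes was not tested. With the replicate block at 1 month 0 members were called and the median log2 fold change was 0.037. No paired analysis was possible because the columns of the other 3 tables carry no replicate numbers of the samples. Mx1 and Oas3 after TAC and Trim14 in NRVMs were near 1 CPM or below, with SEs of 0.27, 0.32 and 0.28, and small differences in these 3 were not detectable at this depth.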
